A study of Mus musculus with 50 samples.

Results

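SGK3 knockout (KO) and control macrophages were compared after both had been given DMXAA, an agonist of mouse STING. The comparison used 10 of the 50 RNA libraries of the series, chosen by their titles: 5 of SGK3 KO cells with DMXAA (10 µg/mL for 2 h) and 5 of wild-type (WT) cells with the same DMXAA, all from batch b1. Batches are named here by the library titles: b1 for numbered libraries, b2 for lettered ones and b3 for those marked as reruns. Every cell was RAW264.7, a mouse macrophage line, and every line had been through CRISPR editing. The SGK3 KO cells carried sgRNA against SGK3, and the WT cells, named as empty vector, carried control sgRNA. Both lines without treatment (3 libraries each), an SGK1/SGK3 double KO line with DMXAA (5 libraries) and WT cells given 500 nM of the SGK inhibitor Sanofi-14h for 2 h before DMXAA (5 libraries) were set beside them. The labels give 1 line per genotype, do not say whether it was a clone, and do not say which WT libraries received the DMSO vehicle. An effect of the SGK3 edit and a property of that line therefore cannot be told apart.

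SGK3 is a serine/threonine kinase of the AGC family that binds phosphatidylinositol 3-phosphate on endosomes through a PX domain and acts on substrates shared with SGK1 and AKT. STING sits on the endoplasmic reticulum and, once bound by a cyclic dinucleotide or by DMXAA, recruits TBK1, which phosphorylates IRF3. IRF3 switches on interferon beta, which leaves the cell, binds its receptor and, through the ISGF3 complex, turns on the interferon-stimulated genes. Macrophages also keep a low level of these genes before any stimulus.

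The 10 libraries held 65918300 to 89631338 counts each, with 5.89 to 7.74% of counts in ribosomal protein genes and 9.08 to 12.8% in the 20 most abundant genes. Levels below are in CPM, which is counts divided by library size (scaled by the TMM method) so that libraries of any depth can be compared, means carry the SD over 5 libraries, and differences are log2 fold changes ± SE, SGK3 KO over WT, with adjusted p from edgeR's quasi-likelihood test across 18315 genes. The summed level of 10 macrophage markers was 8117 to 9613 CPM in SGK3 KO libraries and 7989 to 8836 CPM in WT libraries. Lyz2 made up much of that sum, at a mean of 4757 CPM in SGK3 KO and 4309 CPM in WT libraries. Single markers within it differed in both directions. Fcgr1 averaged 21.2 CPM in SGK3 KO and 65.8 CPM in WT libraries, and Mpeg1 570 and 363 CPM in the same order. Of 30 markers of other cell types, including Cd3e, Ly6g, Col1a1 and Epcam, 17 were at 0 in all 10 libraries and 28 lay under 1 CPM in each of them, and their sum was 1.39 to 2.57 CPM in SGK3 KO libraries and 3.45 to 4.92 CPM in WT libraries.

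Sgk3 RNA itself (ENSMUSG00000025915.15, chr1:9868332-9971070 on GRCm39) was not lower in the line labelled SGK3 KO. Sgk3 had 97.7, 107, 108, 109 and 99.8 CPM in SGK3 KO libraries, against 97, 107, 103, 100.2 and 96.2 CPM in WT libraries. The groups overlapped and the difference was 0.05 ± 0.06 (edgeR adjusted p = 0.742). A gene's total count does not show whether its reading frame is intact, so these values leave the knockout unchecked at the protein level. Sgk1, the relative that growth signals and stress switch on quickly, was lower, with 19.8, 22, 24.1, 23.3 and 18.9 CPM in SGK3 KO libraries and 45.6, 50.7, 54.1, 52.3 and 49.8 CPM in WT libraries, a difference of -1.23 ± 0.31 (edgeR adjusted p = 0.00495) without overlap. In untreated cells Sgk1 averaged 2.24 ± 0.353 CPM in SGK3 KO cells and 1.6 ± 0.321 CPM in WT cells (SD, n = 3 each), and its difference between the lines was not shown to depend on DMXAA (interaction edgeR adjusted p = 0.347). Sgk2 had no count in the 10 libraries.

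With DMXAA, 1982 of the 18315 genes differed between the lines at an adjusted p under 0.05 in edgeR's quasi-likelihood test. Of these, 1121 were higher in SGK3 KO cells, which is 6.12% of the genes tested, and 861 were lower, which is 4.7%. At a change of at least 2-fold the balance was the other way, with 164 higher and 280 lower. On the deposited TPM values, tested with limma, the split of all calls was 729 higher and 1178 lower. Since these are bulk libraries, fewer responding cells and less RNA per responding cell cannot be told apart.

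The interferon pathway itself was lower at its cytokine and at its transcription factors, not at its receptor. Of 13 tested genes for interferon beta, its receptor and signalling, 6 were lower and 1 was higher. Their median difference was -1.07, or -0.22 with a gene at 0 in a group held at its bound, against -0.01 over all genes tested. Ifnb1 (ENSMUSG00000048806.5, chr4:88440262-88441011) had 4.2, 6.85, 4.75, 5.34 and 7.06 CPM in SGK3 KO libraries, against 28, 29.7, 37.3, 42.2 and 51.3 CPM in WT libraries. Every SGK3 KO library lay below every WT library, and the difference was -2.74 ± 0.48 (edgeR adjusted p = 1.63e-04), a 6.68-fold lower level. No count of Ifnb1 was found in the untreated libraries of either line, so it was detected after DMXAA alone.

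The receptor subunits differed little. Ifnar1 had 52.8, 47.2, 50.3, 49.7 and 51.5 CPM in SGK3 KO libraries, against 46.5, 43.1, 40.7, 39.3 and 42 CPM in WT libraries, a higher level by 0.25 ± 0.07 (edgeR adjusted p = 0.0139). It no longer passed without WT replicate 4 (edgeR adjusted p = 0.0532) or with limma on TPM (adjusted p = 0.317). Ifnar2, the other subunit, averaged 74.5 ± 1.32 CPM in SGK3 KO cells and 74.5 ± 3.37 CPM in WT cells (difference -0.00 ± 0.06, edgeR adjusted p = 1). Stat2 and Irf9, of the ISGF3 complex downstream of the receptor, were both lower. Stat2 averaged 27.1 ± 2.04 CPM in SGK3 KO cells and 58.3 ± 5.98 CPM in WT cells (-1.11 ± 0.10, edgeR adjusted p = 1.58e-11). Irf9 averaged 35.1 ± 2.62 CPM in SGK3 KO cells and 73.6 ± 2.51 CPM in WT cells (-1.07 ± 0.09, edgeR adjusted p = 4.32e-13). Usp18, which removes ISG15 from proteins and also blocks the interferon receptor, was 11.1-fold lower, at 15.8, 16.9, 16.4, 19 and 12 CPM in SGK3 KO libraries against 158, 183, 191, 187 and 167 CPM in WT libraries (-3.47 ± 0.23, edgeR adjusted p = 1.24e-14).

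Among 19 tested genes of the cGAS-STING-TBK1-IRF3 pathway, 5 were lower and 2 higher, and the median of -0.04 was close to that of all genes. Irf7, the interferon-inducible relative of IRF3, fell most. Irf7 had 8.51, 10.1, 7.76, 9.48 and 8.27 CPM in SGK3 KO libraries, against 105, 135, 129.6, 125 and 109 CPM in WT libraries (-3.78 ± 0.20, edgeR adjusted p = 1.95e-17). Cgas, the DNA sensor that makes the natural STING ligand and that DMXAA bypasses, had 100.4, 95.3, 97.3, 98.7 and 85.4 CPM in SGK3 KO libraries and 164, 167, 172, 183 and 166 CPM in WT libraries, which did not overlap (-0.84 ± 0.05, edgeR adjusted p = 1.22e-16). Sting1, the receptor of DMXAA, averaged 22.5 ± 1.69 CPM in SGK3 KO cells and 34.1 ± 2.32 CPM in WT cells, a difference of -0.60 ± 0.08 (edgeR adjusted p = 4.47e-07), and it was lower by nearly the same amount before DMXAA (-0.56 ± 0.11, edgeR adjusted p = 3.90e-04). Tbk1 differed by -0.21 ± 0.07 (edgeR adjusted p = 0.0348), a call that was lost without SGK3 KO replicate 3, 4 or 5 or WT replicate 2, 3 or 4 (edgeR adjusted p = 0.0543 to 0.111), and with limma on TPM (adjusted p = 0.0823). Irf3 averaged 36.1 ± 3.28 CPM in SGK3 KO cells and 33.1 ± 1.35 CPM in WT cells and did not pass the test (0.13 ± 0.10, edgeR adjusted p = 0.611). Of the 2 that were higher, Lrrc8a, a channel subunit, differed by 0.43 ± 0.13 (edgeR adjusted p = 0.0237). The other, Enpp1, which hydrolyses cGAMP, lay near the detection floor, with 0.157, 0, 0.497, 0.117 and 0.237 CPM in SGK3 KO libraries and no count in any WT library, and limma on TPM did not call it (adjusted p = 0.266).

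Antiviral effectors were lower almost throughout. Of 28 tested genes of this kind, all targets of interferon, 26 were lower in SGK3 KO cells, as were 4.7% of all genes, none was higher and 2 did not pass. Their median difference was -1.80. Rsad2 (viperin, an enzyme that makes a chain-terminating nucleotide) lies at chr12:26492745-26506451, beside Cmpk2, the kinase that feeds it. Rsad2 had 36.7, 39, 41.7, 38 and 27.3 CPM in SGK3 KO libraries, against 1483, 1644, 1786, 1806 and 1654 CPM in WT libraries. The levels differed 45.9-fold (-5.52 ± 0.24, edgeR adjusted p = 1.76e-19). Cmpk2 had 14.9, 14.2, 15.8, 13.6 and 14.6 CPM in SGK3 KO libraries, against 497, 529, 515, 573 and 469 CPM in WT libraries, a 35.4-fold lower level (-5.15 ± 0.23, edgeR adjusted p = 4.32e-19). Neither gene's groups came near each other.

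Mx1, a GTPase that blocks viral nucleocapsids, is annotated as a polymorphic pseudogene in this annotation. It averaged 0.0361 CPM in SGK3 KO libraries, which is under the floor of 0.152 CPM that 3 read pairs give, and 8.33 ± 1.9 CPM in WT libraries, so its fold cannot be measured. Ifit1 binds viral RNA that lacks a mature cap, and it differed less. Ifit1 had 298, 378, 334, 352 and 321 CPM in SGK3 KO libraries, against 632, 579, 657, 713 and 708 CPM in WT libraries, still without overlap (-0.97 ± 0.23, edgeR adjusted p = 0.00307). Leaving out Mx1, the genes printed thus ran from a level 45.9-fold lower for Rsad2 to one 1.95-fold lower for Ifit1. Other called members of the list differed by less, down to -0.26 for Samhd1 (edgeR adjusted p = 1.46e-04).

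**Figure D1:**
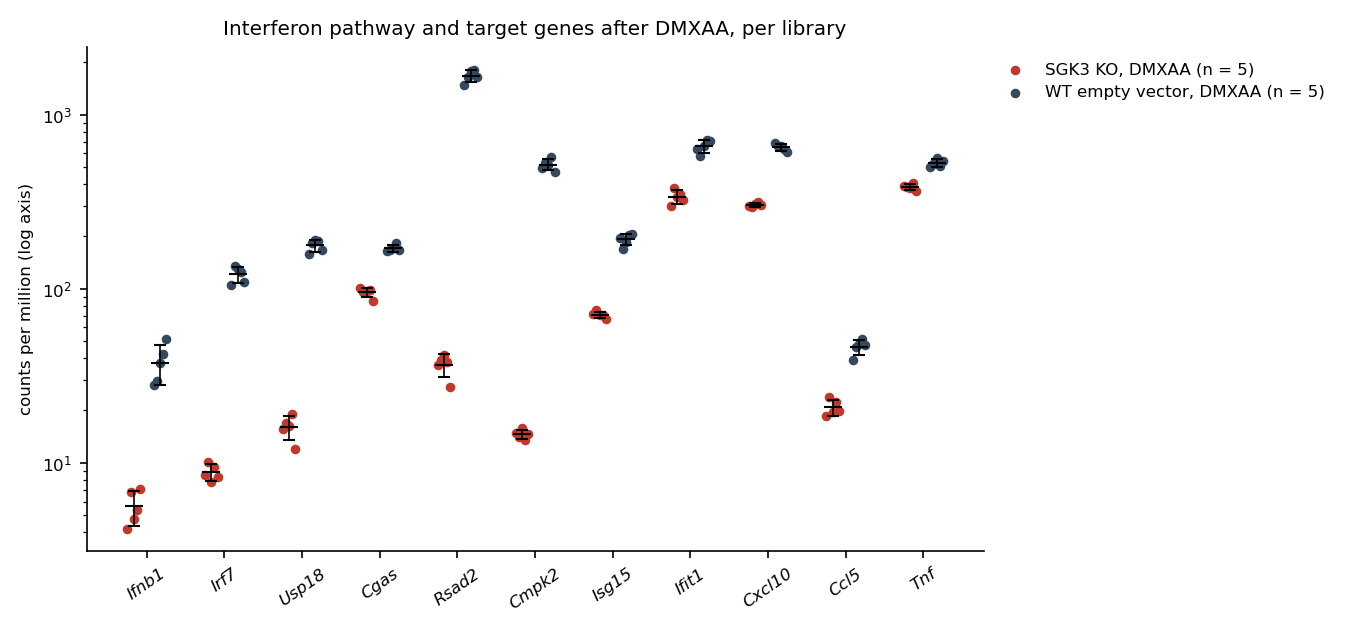
Level of 11 interferon pathway and target genes in each library with DMXAA, in CPM on a log axis, with SGK3 KO libraries (red) left of WT libraries (dark blue) and bars for the mean ± SD of 5 libraries. The SGK3 KO points lie below the WT points for every gene drawn, with a narrow gap for Tnf and a wide one for Rsad2, Cmpk2 and Irf7.

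Promoters of a few of these genes are printed because a short element was found in a larger share of the lower genes than of all genes tested. The element searched was GAAANNGAAA on either strand, the core of the interferon-stimulated response element bound by IRF proteins and ISGF3, in the 250 bases before each gene's start in RefSeq (GRCm38.p6). It was present in 2.98% of 32851 windows. Among genes lower in SGK3 KO cells with DMXAA, 644 of 857 symbols had a window and 64 of those (9.94%) held it, against 19 of 867 (2.19%) for genes higher in SGK3 KO cells and 379 of 11029 (3.44%) for all genes tested. It was found in 7 of 8 matched interferon-inducible GTPases, 11 of 22 matched antiviral effectors, 6 of 13 matched interferon signalling genes, 5 of 15 ISG15, PARP and TRIM genes and 5 of 12 nucleic acid sensors. None of 17 NF-kB genes, none of 17 cGAS-STING pathway genes and none of 17 unfolded protein response genes held it. The 140 bases before the start of 5 such genes follow, 5′ to 3′ in the direction of the gene, with the element or its reverse complement in capitals, which run together where copies overlap.
Rsad2, chr12:26456453-26456592, minus strand: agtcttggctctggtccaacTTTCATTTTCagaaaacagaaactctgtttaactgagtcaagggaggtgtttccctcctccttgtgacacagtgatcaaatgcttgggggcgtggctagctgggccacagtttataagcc
Isg15, chr4:156200819-156200958, minus strand: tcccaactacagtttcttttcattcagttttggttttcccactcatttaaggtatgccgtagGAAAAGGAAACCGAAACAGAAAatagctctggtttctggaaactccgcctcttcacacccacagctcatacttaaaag
Ifit1, chr19:34640749-34640888, plus strand: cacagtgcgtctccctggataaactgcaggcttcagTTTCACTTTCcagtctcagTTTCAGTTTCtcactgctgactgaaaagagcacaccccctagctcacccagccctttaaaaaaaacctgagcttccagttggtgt
Igtp, chr11:58199416-58199555, plus strand: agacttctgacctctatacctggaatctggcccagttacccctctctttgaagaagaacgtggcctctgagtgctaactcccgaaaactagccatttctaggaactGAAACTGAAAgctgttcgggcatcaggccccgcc
Apol9a, chr15:77411081-77411220, minus strand: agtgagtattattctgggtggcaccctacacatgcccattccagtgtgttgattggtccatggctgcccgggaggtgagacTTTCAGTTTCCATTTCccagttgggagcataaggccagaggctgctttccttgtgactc
These matches are letters in a window and were not tested as sites. The element was first met at -120 in Rsad2, -78 in Isg15, -104 in Ifit1, -34 in Igtp and -59 in Apol9a, counted from the base before the start as -1. In the stretches printed Isg15 held 3 overlapping copies, Apol9a held 2 overlapping ones, Ifit1 held 2 separate ones, and Rsad2 and Igtp held 1 each.

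ISG15 is a ubiquitin-like protein joined to others during infection. Its RNA was lower, and so were those of the enzymes that attach it, Uba7, Ube2l6 and Herc6, by -1.32, -1.30 and -1.15 (edgeR adjusted p = 4.88e-10, 1.31e-06 and 5.57e-07). Of 19 tested genes for ISG15 conjugation and for PARP and TRIM proteins, 16 were lower and none higher (median -1.32). Isg15 had 71.3, 75.1, 70.8, 70.5 and 67.2 CPM in SGK3 KO libraries, against 196, 169.6, 186, 204 and 205 CPM in WT libraries (-1.44 ± 0.34, edgeR adjusted p = 0.00283). Trim30a, a regulator of innate signalling in the mouse, had 4.58, 5.01, 4.96, 4.55 and 4.34 CPM in SGK3 KO libraries and 56.3, 77, 77.6, 72.6 and 56.9 CPM in WT libraries (-3.86 ± 0.22, edgeR adjusted p = 4.80e-17). Trim21, an antibody receptor in the cytosol, averaged 9.09 ± 0.505 CPM in SGK3 KO cells and 29.2 ± 1.37 CPM in WT cells (-1.69 ± 0.12, edgeR adjusted p = 1.08e-14).

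The interferon-inducible GTPases, which act on membranes around intracellular pathogens, had 10 of 13 tested members lower and none higher. Their median was -2.24 with a gene at 0 held at its bound (fitted median -2.94). Gbp9 averaged 0.0398 CPM in SGK3 KO libraries, under the floor, and 4.11 ± 0.891 CPM in WT libraries. Gbp4 was at 0 in all SGK3 KO libraries and at 0.0984 CPM on average in WT libraries, so it was near the detection floor in both, and its call was lost without any of the 5 SGK3 KO libraries or without WT replicate 3, 4 or 5 (edgeR adjusted p = 0.0527 to 0.0842).

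Sensors of nucleic acid, cytosolic and endosomal with the adaptor Mavs, followed. Of 16 tested, 12 were lower and none higher (median -1.71). Zbp1, which senses Z-form nucleic acid, averaged 0.484 ± 0.186 CPM in SGK3 KO cells and 3.97 ± 0.405 CPM in WT cells (-3.04 ± 0.71, edgeR adjusted p = 0.00231). Ifi209, of the AIM2-like family, was under the floor in SGK3 KO libraries and averaged 0.684 ± 0.220 CPM in WT libraries. The RNA sensors Ddx58 (RIG-I), Ifih1 (MDA5) and Dhx58 (LGP2) were each lower, by -1.73, -1.38 and -1.49 (edgeR adjusted p = 9.09e-17, 1.75e-10 and 3.30e-12), and are taken up again with the untreated cells.

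**Figure D2:**
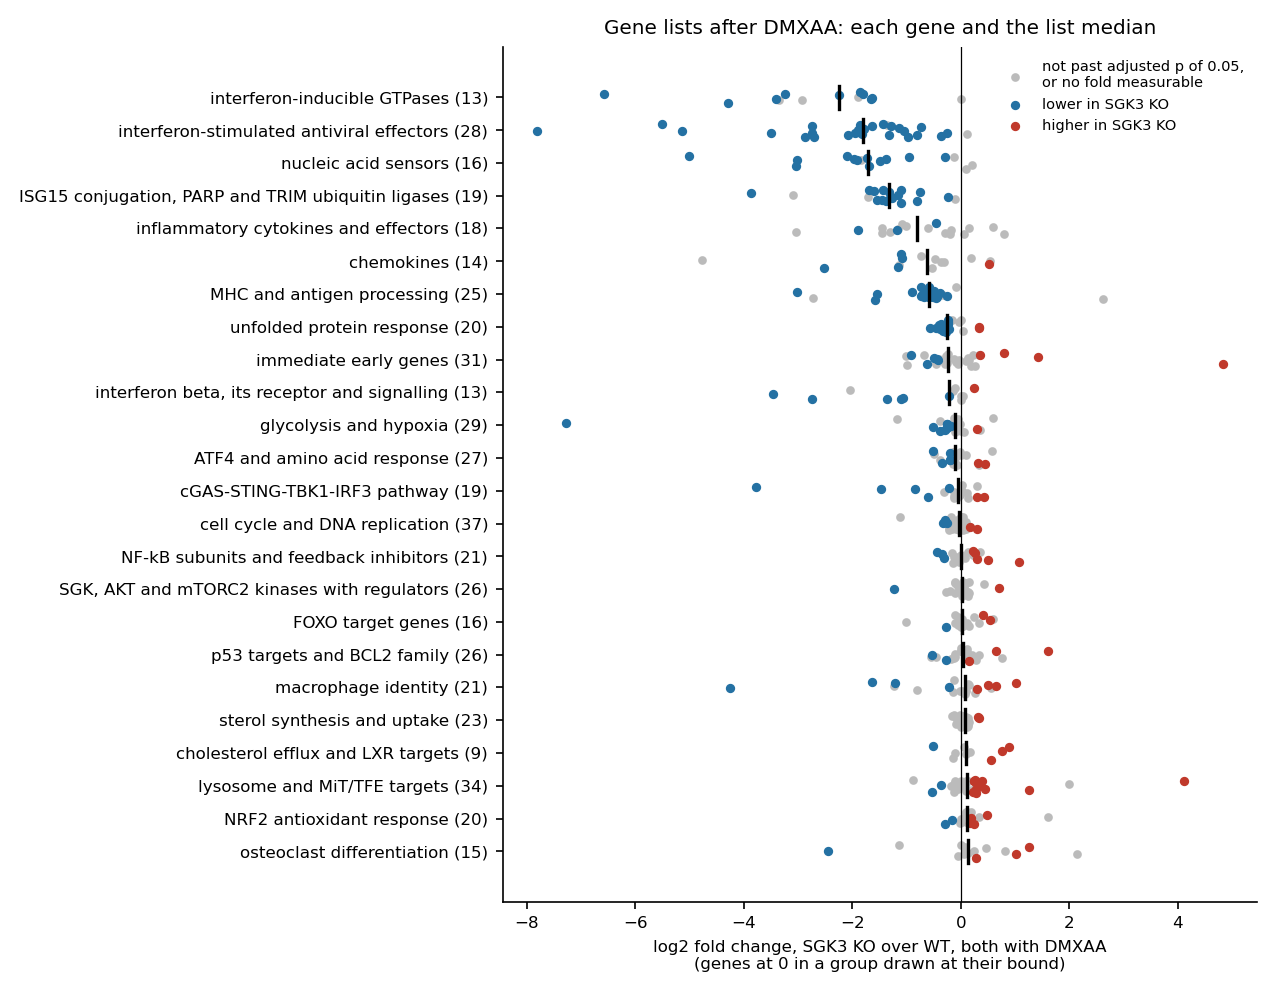
Difference between SGK3 KO and WT cells with DMXAA for each tested gene of 24 gene lists, as log2 fold changes, with the number tested in brackets. Coloured points passed an adjusted p under 0.05 in edgeR, black bars are list medians, and a gene at 0 in a group is drawn at its bound. The lists of antiviral effectors, ISG15, PARP and TRIM genes, GTPases and nucleic acid sensors lie furthest to the left, with medians between -2.24 and -1.32.

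Antigen presentation genes were lower by smaller amounts. Of 25 tested genes for MHC and antigen processing, 20 were lower and none higher, with a median of -0.59. Among those called the nonclassical class I gene H2-T24 changed most. H2-T24 had 13.3, 13.2, 12.6, 14 and 13.5 CPM in SGK3 KO libraries, against 89.9, 121, 122, 108 and 100.4 CPM in WT libraries (-3.02 ± 0.19, edgeR adjusted p = 8.62e-16). H2-T23, which encodes Qa-1, the ligand of the inhibitory receptor NKG2A, averaged 49.4 ± 3.86 CPM in SGK3 KO cells and 148 ± 12 CPM in WT cells (-1.58 ± 0.14, edgeR adjusted p = 3.15e-11). B2m, the light chain that all class I proteins share, differed by -0.60 ± 0.14 (edgeR adjusted p = 0.00200), and the peptide transporter subunit Tap1 by -1.55 ± 0.09 (edgeR adjusted p = 8.17e-18). H2 genes resemble each other and may share reads.

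Of 14 tested chemokines, 4 were lower and 1 higher, as were 4.7% and 6.12% of all genes tested, with a median of -0.63. Cxcl10 encodes a ligand of CXCR3. Cxcl10 had 300.4, 296, 308, 317 and 301 CPM in SGK3 KO libraries, against 687, 657, 662, 635 and 610.5 CPM in WT libraries, without overlap (-1.09 ± 0.19, edgeR adjusted p = 6.09e-05). Ccl5, which attracts T cells and monocytes, had 18.5, 23.8, 19.7, 22.3 and 19.96 CPM in SGK3 KO libraries and 39, 46.1, 48.1, 51.7 and 47.3 CPM in WT libraries (-1.16 ± 0.28, edgeR adjusted p = 0.00305). Ccl2, the main monocyte attractant, averaged 1.4 ± 0.469 CPM in SGK3 KO cells and 8.04 ± 1.39 CPM in WT cells (-2.52 ± 0.63, edgeR adjusted p = 0.00487). Among 18 inflammatory cytokines and effectors, 3 were lower, none higher and 15 did not pass, with a median of -0.81. That median counts members at very low levels, such as Il10 (0.120 CPM in SGK3 KO and 0.331 CPM in WT libraries), so it does not measure a shared drop. The members that averaged at least 5 CPM and did not pass, Vegfa, Tnfsf9, Il15 and Acod1, differed by -0.28, -0.18, 0.06 and 0.15. Tnf was high in both lines. Tnf had 389, 383, 378, 407 and 364 CPM in SGK3 KO libraries, against 503, 522, 567, 504 and 541 CPM in WT libraries (-0.46 ± 0.14, edgeR adjusted p = 0.0263), and the call was lost without SGK3 KO replicate 3 or 5 or WT replicate 3 or 5 (edgeR adjusted p = 0.0509 to 0.0661). Il18, a cytokine activated by inflammasomes, averaged 4.49 ± 0.754 CPM in SGK3 KO cells and 10.1 ± 0.993 CPM in WT cells (-1.17 ± 0.16, edgeR adjusted p = 2.12e-07), and Ptgs2 (cyclooxygenase-2) averaged 1.53 ± 0.263 CPM in SGK3 KO cells and 5.67 ± 0.818 CPM in WT cells (-1.89 ± 0.23, edgeR adjusted p = 1.59e-08). Il6 averaged 0.115 CPM in SGK3 KO libraries and 0.246 CPM in WT libraries, and Il1b 0.0578 CPM and 0.0882 CPM in the same order, both too low to measure a fold.

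NF-kB genes did not share the interferon pattern. Of 21 tested subunits and feedback inhibitors, 5 were higher and 3 lower, as were 6.12% and 4.7% of all genes tested, with a median of 0.01. The 3 lower were Nfkbiz, Zfp36 and Nfkbib, by -0.45, -0.34 and -0.31 (edgeR adjusted p = 0.00573, 0.0425 and 0.00678). Nfkbia (IκBα), the inhibitor that NF-kB itself switches on, averaged 209 ± 10.5 CPM in SGK3 KO cells and 178 ± 11.1 CPM in WT cells, higher by 0.23 ± 0.07 (edgeR adjusted p = 0.0173), and the call was lost without SGK3 KO replicate 1 or 3 or WT replicate 2 (edgeR adjusted p = 0.0506 to 0.0801). Nfkbie averaged 10.5 ± 1.21 CPM in SGK3 KO cells and 7.41 ± 0.664 CPM in WT cells (0.50 ± 0.13, edgeR adjusted p = 0.00681, but adjusted p = 0.0575 with limma on TPM). Tnfaip2, a gene that TNF induces, averaged 75.1 ± 2.98 CPM in SGK3 KO cells and 35.6 ± 2.07 CPM in WT cells (1.08 ± 0.08, edgeR adjusted p = 1.43e-13). Of 31 immediate early genes, 5 were lower and 4 higher. Spry2, a brake on the MAP kinase pathway, was higher, at 7.05, 5.47, 6.8, 7.22 and 9.22 CPM in SGK3 KO libraries and 2.59, 2.78, 2.64, 2.83 and 2.53 CPM in WT libraries (1.42 ± 0.20, edgeR adjusted p = 9.08e-07). Myc was higher but low in both, at 0.659 CPM in SGK3 KO libraries and 0.0215 CPM in WT libraries, the second under its floor of 0.163 CPM.

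A further set of WT libraries, those of batch b2, was used to sort genes by their response to DMXAA, since none of its libraries enters the comparison of the lines. In these cells 267 genes (1.46% of those tested) were induced at least 2-fold and 80 (0.437%) were lowered at least 2-fold, at an adjusted p under 0.05 in edgeR. Of the 267 induced genes, 68 (25.5%) were lower in SGK3 KO cells with DMXAA and 18 were higher, and the median difference was -0.31. Of the 80 lowered genes, 24 (30%) were higher in SGK3 KO cells and 1 was lower, with a median of 0.54. Among the other 17968 genes, 6.01% were higher and 4.41% lower. Without DMXAA the medians of the same classes were -0.06 for induced and 0.04 for lowered genes. Classes cut at 4-fold gave 29.6% of 135 induced genes lower and 24% of 25 lowered genes higher. Most genes of both classes, 181 of 267 and 55 of 80, did not pass the test. On TPM with limma the share of lowered genes that were higher was 15.8%.

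Many of the differences were present before DMXAA. In untreated cells 883 genes differed between the lines, 511 higher in SGK3 KO cells (2.79%) and 372 lower (2.03%), from 3 libraries of each line. These are other libraries than those given DMXAA, but come from the same lines and batch and enter the same fit. Of these, 737 were also called with DMXAA, 735 of them in the same direction. Those 735 are 83.2% of the untreated list and 37.1% of the list with DMXAA. Of the 737, 407 were higher both times, 328 were lower both times, and 2 had opposite signs. Across the 2128 genes called in either state, the 2 sets of differences had a Spearman correlation of 0.83, given as a description over genes, which are not independent.

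Interferon-stimulated genes were prominent among the differences without DMXAA. Irf7 averaged 3.29 ± 0.273 CPM in untreated SGK3 KO cells and 66 ± 30.2 CPM in untreated WT cells (SD, n = 3 each), a difference of -4.33 ± 0.28 (edgeR adjusted p = 8.92e-15). Usp18 averaged 5.62 ± 0.592 CPM in SGK3 KO and 52.9 ± 19.1 CPM in WT cells (-3.23 ± 0.30, edgeR adjusted p = 2.70e-10). Of the antiviral effectors 19 of 28 were lower without DMXAA, as were 16 of 19 ISG15, PARP and TRIM genes, 10 of 13 GTPases, 10 of 16 sensors and 11 of 25 MHC genes. Ifnb1 was at 0 in these same libraries, so this lower level stood beside no detectable Ifnb1 RNA in either line.

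**Figure D3:**
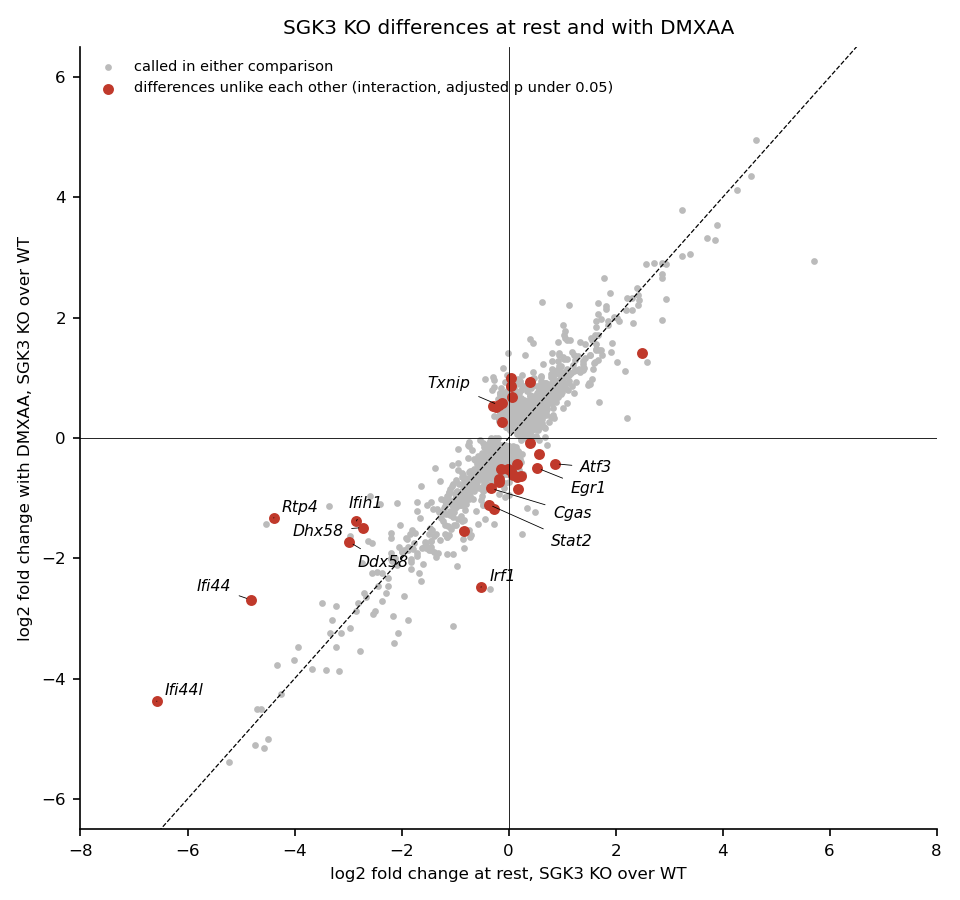
Log2 fold change of SGK3 KO over WT cells without treatment (x axis) and with DMXAA (y axis) for the 1985 of 2128 genes called in either that were above the detection floor in all 4 groups. Red points are the genes whose 2 differences were unlike each other in edgeR's interaction test, and the dashed line marks equal differences. Most points lie along the line, Irf1 lies far below it, and Ifi44, Ifi44l and Rtp4 lie above it.

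A direct test asked whether the difference between the lines was the same with and without DMXAA. The interaction was called for 35 genes, 15 with a more positive difference under DMXAA (0.0819% of genes) and 20 with a more negative one (0.109%), and 886 had an unadjusted p under 0.05. On TPM, limma called 11 of the first kind and 54 of the second, and a fit of batch b1 alone called 99 and 88. DESeq2 called 103 genes in all, and leaving out 1 library gave 20 to 41. The count was 20 without resting SGK3 KO replicate 2, 23 without SGK3 KO replicate 5 with DMXAA and 23 without resting WT replicate 3.

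Irf1, an early transcription factor of the interferon and NF-kB responses, had the most negative value. With DMXAA Irf1 had 21.6, 23.2, 21.9, 22.6 and 20.8 CPM in SGK3 KO libraries, against 123, 119, 118, 138 and 115 CPM in WT libraries. Without it, it had 13.5, 14.7 and 12.1 CPM in SGK3 KO libraries and 20.7, 17.7 and 19.3 CPM in WT libraries. The difference was -2.48 ± 0.15 with DMXAA (edgeR adjusted p = 2.57e-17) and -0.52 ± 0.18 without (edgeR adjusted p = 0.113), and the interaction was -1.96 ± 0.23 (edgeR adjusted p = 8.59e-07). DMXAA thus raised Irf1 by 0.71 on the log2 scale in SGK3 KO cells and by 2.67 in WT cells. The 140 bases before its start hold a match to TTCNNNGAA, the letters of the GAS element, which reads the same on both strands and occurs in 7.02% of all windows. The match is in capitals.
Irf1, chr11:53769874-53770013, plus strand: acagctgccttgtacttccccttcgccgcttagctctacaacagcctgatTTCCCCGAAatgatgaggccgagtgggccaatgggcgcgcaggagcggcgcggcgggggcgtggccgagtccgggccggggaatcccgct
This one match, at -90, is again a description. Atf3, a stress-induced repressor, was higher without DMXAA, at 33.4 ± 2.47 CPM in SGK3 KO and 18.3 ± 2.49 CPM in WT cells (0.87 ± 0.16, edgeR adjusted p = 2.26e-04), and lower with it, at 52.2 ± 3.11 CPM in SGK3 KO and 70.2 ± 3.94 CPM in WT cells (-0.43 ± 0.12, edgeR adjusted p = 0.0165), and its interaction was -1.3 ± 0.21 (edgeR adjusted p = 3.27e-04). The difference with DMXAA did not pass without SGK3 KO replicate 5 (edgeR adjusted p = 0.0589). Egr1, an immediate early zinc finger factor, had 236, 246, 286, 248 and 249.7 CPM in SGK3 KO libraries and 405, 361, 335, 346 and 344 CPM in WT libraries with DMXAA (-0.50 ± 0.12, edgeR adjusted p = 0.00266). Its interaction was -1.04 ± 0.20 (edgeR adjusted p = 0.00751) and was lost without resting SGK3 KO replicate 2 or resting WT replicate 3 (edgeR adjusted p = 0.0603 to 0.0605).

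Other negative interactions had smaller values. Map3k8 (TPL2, a MAP kinase kinase kinase of innate signalling) averaged 12.7 ± 1.97 CPM in SGK3 KO cells and 23 ± 2.23 CPM in WT cells with DMXAA and its interaction was -1.03 ± 0.20 (edgeR adjusted p = 0.00751). Daxx, a histone chaperone that interferon induces, averaged 53.8 ± 2.88 CPM in SGK3 KO cells and 122 ± 7.84 CPM in WT cells (interaction -0.90 ± 0.16, edgeR adjusted p = 0.00144). For Cgas the difference of -0.33 ± 0.07 without DMXAA widened with it (interaction -0.50 ± 0.09, edgeR adjusted p = 9.45e-04). Stat2 had an interaction of -0.74 ± 0.17 (edgeR adjusted p = 0.0349), which was lost without SGK3 KO replicate 2, 3 or 5 or WT replicate 2, 3 or 4 or resting SGK3 KO replicate 1, 2 or 3 or resting WT replicate 2 or 3 (edgeR adjusted p = 0.0560 to 0.212). Trip6, a LIM-domain adaptor, was higher in SGK3 KO cells both times, by 2.49 ± 0.19 without DMXAA (edgeR adjusted p = 1.70e-13) and 1.41 ± 0.14 with it (edgeR adjusted p = 1.39e-10). Its negative interaction of -1.09 ± 0.23 (edgeR adjusted p = 0.0173) is therefore a narrowing on the log2 scale. That interaction was lost without resting SGK3 KO replicate 2 or resting WT replicate 1 or 3 (edgeR adjusted p = 0.0671 to 0.0775).

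The positive interactions were led by interferon-stimulated genes whose log2 difference from WT was smaller with DMXAA, though they stayed lower. This holds for the ratio to WT. In CPM the gap between the lines was wider with DMXAA for Rtp4, Ifi44 and Ifih1. Rtp4, a chaperone of membrane receptors, had 2.04, 2.16 and 1.62 CPM in untreated SGK3 KO libraries and 59.95, 30.7 and 31.7 CPM in untreated WT libraries. With DMXAA it had 89.9, 95.7, 79.4, 93.3 and 82.5 CPM in SGK3 KO libraries and 213, 203, 221, 238 and 232 CPM in WT libraries. On the log2 scale the difference was -4.39 ± 0.26 without DMXAA and -1.33 ± 0.16 with it, and the interaction was 3.06 ± 0.30 (edgeR adjusted p = 3.91e-08). Ifi44 averaged 5.71 ± 0.282 CPM in SGK3 KO and 161 ± 62.2 CPM in WT cells without DMXAA, and 61.2 ± 6.32 CPM in SGK3 KO and 395 ± 30.6 CPM in WT cells with it (interaction 2.13 ± 0.25, edgeR adjusted p = 1.09e-06). Its relative Ifi44l had an interaction of 2.2 ± 0.45 (edgeR adjusted p = 0.0173), lost without resting SGK3 KO replicate 1, 2 or 3 or resting WT replicate 1 (edgeR adjusted p = 0.0645 to 0.123).

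The 3 RNA sensors showed the same sign. Ifih1 had 152, 147, 147, 156 and 128 CPM in SGK3 KO libraries, against 356, 402, 385, 402 and 351 CPM in WT libraries with DMXAA, and 2.97 ± 0.520 CPM in SGK3 KO against 21.3 ± 5.4 CPM in WT cells without it (interaction 1.46 ± 0.23, edgeR adjusted p = 4.68e-04, and adjusted p = 0.123 with limma on TPM). Ddx58 averaged 49.6 ± 3.02 CPM in SGK3 KO cells and 164 ± 18.7 CPM in WT cells with DMXAA (interaction 1.24 ± 0.18, edgeR adjusted p = 3.65e-05). Dhx58 averaged 24.6 ± 2.73 CPM in SGK3 KO cells and 68.9 ± 6.75 CPM in WT cells (interaction 1.23 ± 0.22, edgeR adjusted p = 0.00145, and edgeR adjusted p = 0.0612 in a fit of the compared groups alone). Resting WT replicate 1 was the highest of its 3 libraries for Rtp4, Ifi44, Ifi44l, Ifih1, Ddx58 and Dhx58.

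Txnip, an inhibitor of thioredoxin and of glucose uptake, was one that DMXAA lowered. Its change with DMXAA was -1.36 in SGK3 KO cells and -2.10 in WT cells on the log2 scale (edgeR adjusted p = 4.26e-22 and 5.86e-29). With DMXAA it had 91.8, 87.9, 90.1, 109 and 99.1 CPM in SGK3 KO libraries and 65.1, 68, 69.2, 60.8 and 63.7 CPM in WT libraries, a higher level by 0.55 ± 0.05 (edgeR adjusted p = 4.41e-11). Without DMXAA the means were 245 ± 4.03 CPM in SGK3 KO and 279 ± 20.1 CPM in WT cells, and the interaction was 0.73 ± 0.09 (edgeR adjusted p = 7.09e-07).

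**Figure D4:**
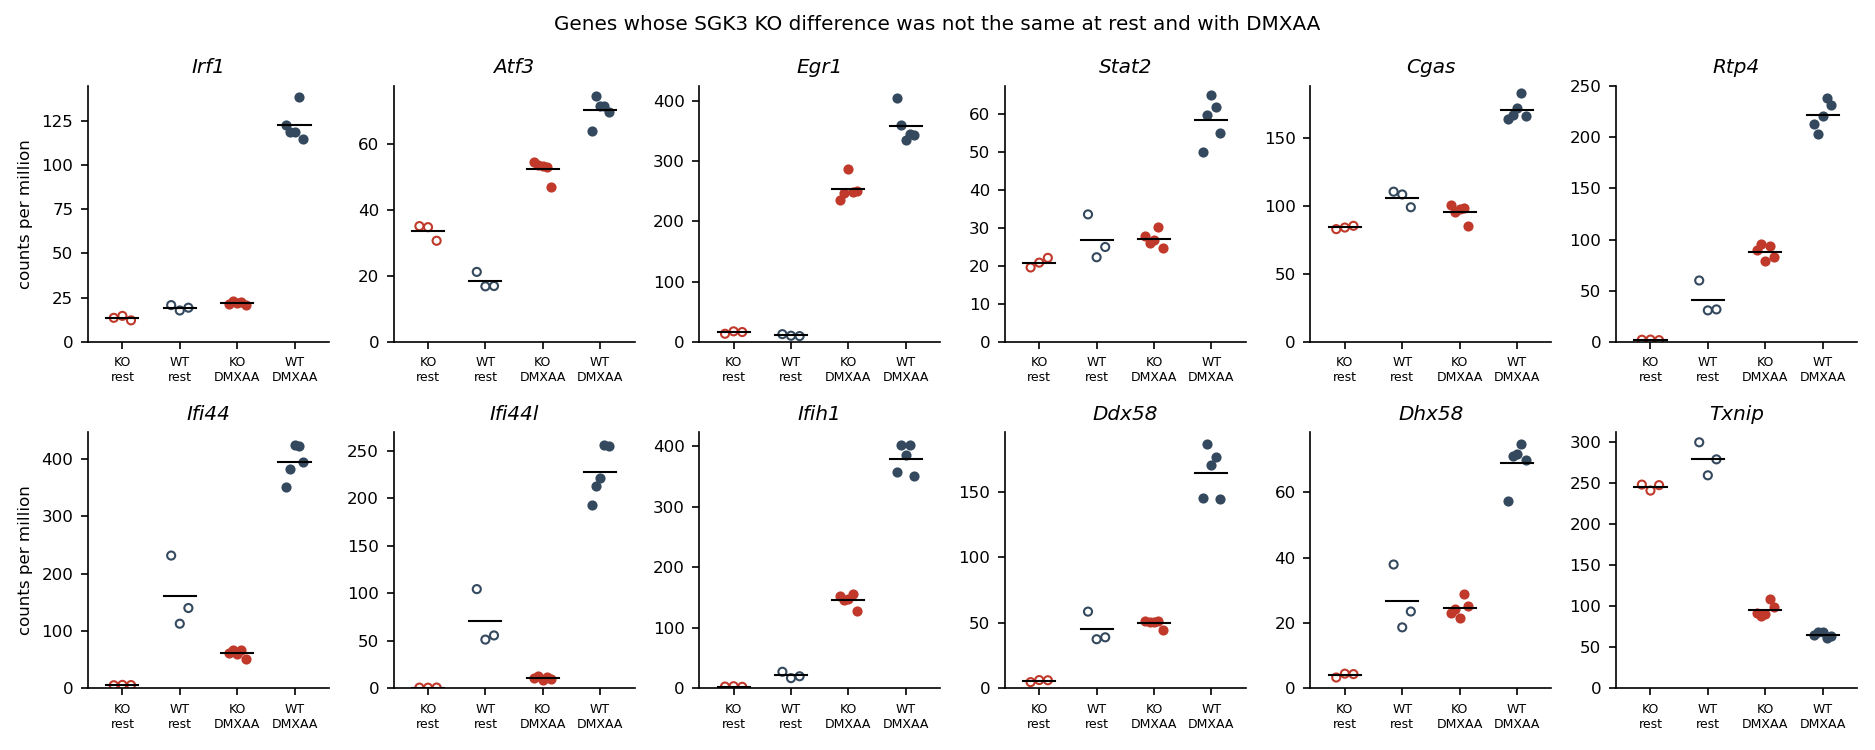
Level in CPM of 12 genes whose SGK3 KO difference with DMXAA was unlike that without treatment, with open circles for untreated libraries (3 per line), filled circles for DMXAA (5 per line) and lines for the means. SGK3 KO libraries (KO, red) stand left of WT libraries in each pair. Irf1 reached a mean of 22 CPM with DMXAA in SGK3 KO cells, against 122 CPM in WT cells, while Txnip ended higher in SGK3 KO cells.

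The widest differences called were in genes that were on in one line and nearly off in the other in batch b1, with or without DMXAA. Plod2 (ENSMUSG00000032374.15, chr9:92424276-92490481), a collagen lysyl hydroxylase, had no count in any SGK3 KO library and 20.8, 24.1, 22.7, 26.1 and 24.6 CPM in WT libraries, at least 156-fold lower. It was also at 0 in untreated SGK3 KO libraries, at least 56.1-fold lower than in untreated WT libraries. Maoa (ENSMUSG00000025037.7, chrX:16485937-16554057), which oxidises serotonin and noradrenaline, was the reverse. It had 26.9, 32.7, 26.2, 25.5 and 29.3 CPM in SGK3 KO libraries and no count in any WT library with DMXAA in batch b1, at least 172-fold higher. In WT cells of batch b2, Maoa was among the genes that DMXAA lowered (-5.17 on the log2 scale), so untreated WT libraries there held counts of it.

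Other genes of the lower side had varied roles. Sdc3 (syndecan-3, a heparan sulphate proteoglycan) had 0.716, 1.05, 1.16, 0.934 and 0.657 CPM in SGK3 KO libraries and 33.3, 44.9, 38.1, 38 and 33.4 CPM in WT libraries (-5.38 ± 0.44, edgeR adjusted p = 7.92e-12). Lgals9 (galectin-9) averaged 1.04 ± 0.216 CPM in SGK3 KO cells and 33.5 ± 4.25 CPM in WT cells (-5.01 ± 0.28, edgeR adjusted p = 2.57e-17), and Nid2 (nidogen-2, of basement membranes) averaged 0.322 ± 0.0885 CPM in SGK3 KO cells and 11.2 ± 0.746 CPM in WT cells (-5.11 ± 0.56, edgeR adjusted p = 8.40e-09). Adgrl2, an adhesion receptor, averaged 0.0769 CPM in SGK3 KO libraries, under the floor, and 9.63 ± 0.967 CPM in WT libraries. Cpq, a secreted peptidase, averaged 0.220 ± 0.189 CPM in SGK3 KO cells and 6.31 ± 1.3 CPM in WT cells (-4.84 ± 0.40, edgeR adjusted p = 6.56e-13). The interferon-induced apolipoprotein L genes Apol9a and Apol9b, which may share reads, averaged 1.29 ± 0.221 and 0.407 ± 0.144 CPM in SGK3 KO cells and 81.6 ± 6.78 and 19.6 ± 2.45 CPM in WT cells. The long noncoding RNA AI504432 averaged 0.252 ± 0.221 CPM in SGK3 KO cells and 7.34 ± 1.3 CPM in WT cells (-4.88 ± 0.58, edgeR adjusted p = 6.24e-08).

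The higher side had members of several kinds. Ptprk, a receptor tyrosine phosphatase, had 41.6, 43.7, 38.4, 42.3 and 45.8 CPM in SGK3 KO libraries, while 4 WT libraries were at 0 and the fifth at 0.129 CPM; edgeR called it (adjusted p = 1.79e-08) and DESeq2 did not (adjusted p = 0.0718). Igf1, a growth factor of tissue macrophages, had 33, 41.7, 36.9, 37.2 and 39.97 CPM in SGK3 KO libraries and 5.92, 4.14, 5.51, 4.88 and 4.49 CPM in WT libraries (2.92 ± 0.16, edgeR adjusted p = 2.85e-18). Gpnmb, a lysosome-associated glycoprotein, had 29.1, 29.4, 28.5, 30.4 and 28.4 CPM in SGK3 KO libraries and 2.13, 1.3, 1.62, 1.49 and 1.83 CPM in WT libraries (4.12 ± 0.20, edgeR adjusted p = 6.69e-20).

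Immune surface proteins were among them. Cd80, a costimulator of T cells, averaged 5.54 ± 0.828 CPM in SGK3 KO cells and 0.554 ± 0.266 CPM in WT cells (3.32 ± 0.55, edgeR adjusted p = 1.47e-05), Cd48, an adhesion protein, 11.6 ± 2.11 CPM in SGK3 KO cells and 1.39 ± 0.236 CPM in WT cells (3.06 ± 0.26, edgeR adjusted p = 1.17e-12), and Cxcr4, the receptor of CXCL12, 6.96 ± 0.986 CPM in SGK3 KO cells and 0.709 ± 0.238 CPM in WT cells (3.29 ± 0.40, edgeR adjusted p = 2.66e-08). Scarf1, a scavenger receptor, averaged 7.56 ± 0.680 CPM in SGK3 KO cells and 0.243 ± 0.162 CPM in WT cells (4.96 ± 0.74, edgeR adjusted p = 2.60e-06). Unc13d, needed for granule release, averaged 10.2 ± 1.34 CPM in SGK3 KO cells and 1.33 ± 0.249 CPM in WT cells (2.94 ± 0.50, edgeR adjusted p = 2.90e-05). Nxf7, of an RNA export family, Serpinb6b, a protease inhibitor, and Pax3, a developmental transcription factor, rose by 4.35, 3.79 and 3.73 on the log2 scale (edgeR adjusted p = 8.12e-15, 4.67e-06 and 3.18e-12). Each of the genes named here was also called without DMXAA in the same direction, and none had an interaction past the threshold.

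**Figure D5:**
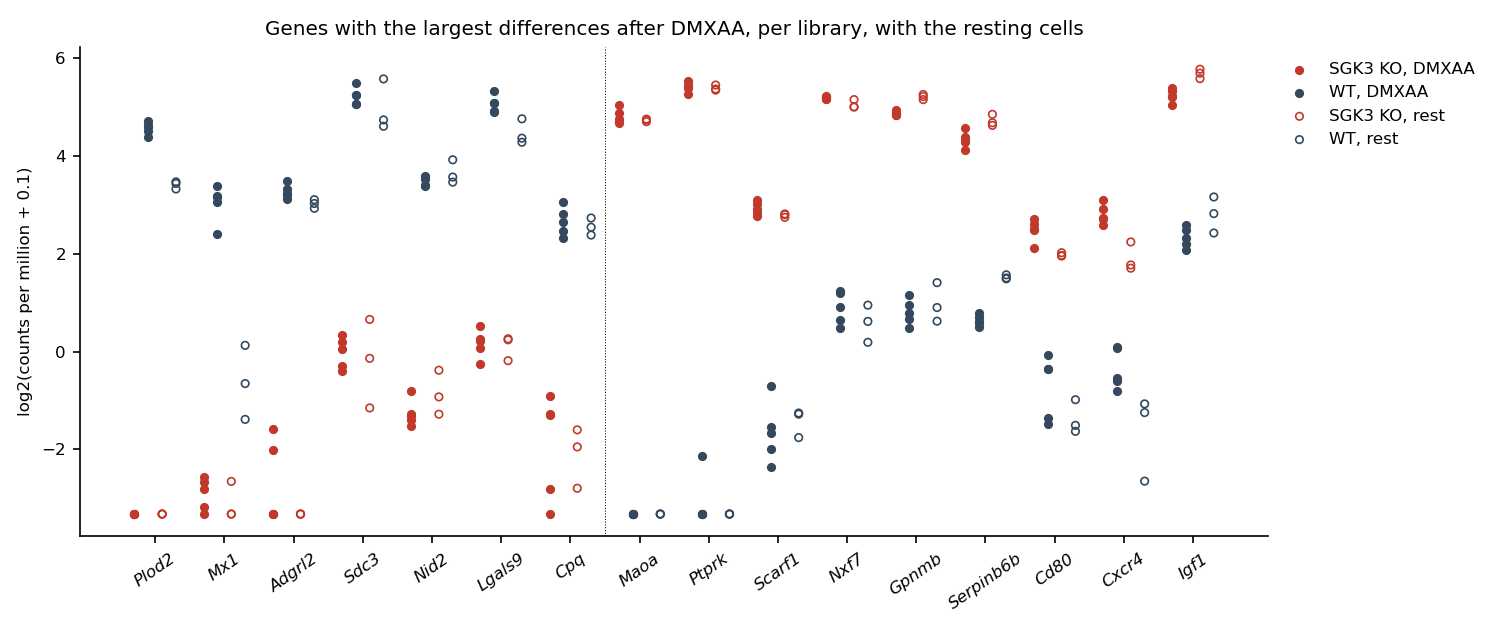
Level of 16 genes picked from those with wide differences after DMXAA, as log2(CPM + 0.1) in each library. Some genes with differences as wide, such as Apol9a and Rsad2, are not drawn. Filled circles are libraries with DMXAA and open circles untreated ones, with SGK3 KO (red) left of WT (dark blue) within each state. The 7 genes left of the dotted line were lower in SGK3 KO cells and the 9 right of it higher, and all 16 were called in the same direction in untreated cells.

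The SGK and AKT kinases and their regulators were mostly level. Of 26 tested, 1 was lower (Sgk1), 1 was higher (Ndrg1) and the median was 0.02. Ndrg1 encodes a protein that SGK kinases phosphorylate. Ndrg1 had 29.1, 32.3, 32.1, 31.1 and 28.9 CPM in SGK3 KO libraries, against 19.7, 21.6, 18.6, 16.7 and 17.4 CPM in WT libraries (0.71 ± 0.12, edgeR adjusted p = 1.08e-05). Among 16 tested genes that FOXO factors control, 2 were higher and 1 lower, as were 6.12% and 4.7% of all genes tested. Besides Txnip, Sesn1, a stress-induced inhibitor of mTORC1, was higher, at 40.9 ± 2.1 CPM in SGK3 KO cells and 30.7 ± 2.04 CPM in WT cells (0.42 ± 0.08, edgeR adjusted p = 1.90e-04), and limma on TPM did not call it (adjusted p = 0.0717).

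Chaperones of the endoplasmic reticulum, where STING resides at rest, were lower by small amounts. Of 20 genes of the unfolded protein response, 12 were lower and 2 higher, Ern1 and Xbp1, with a median of -0.25. Over all genes tested the shares were 4.7% lower and 6.12% higher. Sdf2l1 is a chaperone of this kind. Sdf2l1 had 119, 123, 106, 125 and 113 CPM in SGK3 KO libraries, against 182, 177, 168, 167 and 174 CPM in WT libraries (-0.57 ± 0.07, edgeR adjusted p = 1.07e-07). Pdia4, a disulphide isomerase, averaged 151 ± 8.5 CPM in SGK3 KO cells and 206 ± 14.6 CPM in WT cells (-0.45 ± 0.07, edgeR adjusted p = 2.79e-06). Both were lower by similar amounts without DMXAA (-0.58 and -0.41), where 7 of the 20 were lower. Of 27 ATF4 and amino acid genes, 5 were lower and 2 higher. Cebpg, a partner of ATF4, averaged 49.6 ± 6.94 CPM in SGK3 KO cells and 36.6 ± 1.87 CPM in WT cells (0.44 ± 0.07, edgeR adjusted p = 8.49e-06). Pycr1, of proline synthesis, averaged 5.45 ± 0.942 CPM in SGK3 KO cells and 7.81 ± 0.516 CPM in WT cells, a difference of -0.52 ± 0.17 (edgeR adjusted p = 0.0444) that no longer passed without SGK3 KO replicate 1, 2, 3 or 5 or WT replicate 1, 2, 3, 4 or 5 (edgeR adjusted p = 0.0504 to 0.167).

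Lysosomal genes leaned the other way. Of 34 lysosome and MiT/TFE genes, 11 were higher and 2 lower, as were 6.12% and 4.7% of all genes tested, with a median of 0.11. Without DMXAA the list also had 11 higher and 2 lower, with a median of 0.21. Apart from Gpnmb, Atp6v0d2, a subunit of the proton pump in osteoclasts and macrophages, averaged 3.99 ± 0.502 CPM in SGK3 KO cells and 1.67 ± 0.333 CPM in WT cells, higher by 1.26 ± 0.38 (edgeR adjusted p = 0.0228), and the call was lost without WT replicate 1 or 2 (edgeR adjusted p = 0.0512 to 0.0657). Of 9 genes of cholesterol efflux and its regulator LXR, 3 were higher and 1 lower. Abca1, the pump that loads cholesterol onto apolipoprotein A-I, had 13.2, 12, 11.9, 8.26 and 12.1 CPM in SGK3 KO libraries and 6.11, 5.79, 6.27, 7.13 and 8.67 CPM in WT libraries (0.76 ± 0.14, edgeR adjusted p = 1.29e-04), with 1 SGK3 KO library inside the WT range. Nr1h3 (LXRα) averaged 2.98 ± 0.602 CPM in SGK3 KO cells and 1.6 ± 0.241 CPM in WT cells (0.90 ± 0.25, edgeR adjusted p = 0.00995), a call lost without SGK3 KO replicate 5 (edgeR adjusted p = 0.0504). Sterol synthesis was nearly level with DMXAA. Of 23 genes 2 were higher, among them Hmgcs1, which makes HMG-CoA, by 0.32 ± 0.07 (edgeR adjusted p = 8.71e-04), while without DMXAA 14 were higher. None of the 23 had an interaction past the threshold, so the differences were not shown to depend on DMXAA.

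Beside 4.7% lower and 6.12% higher among all genes tested, glycolysis and hypoxia genes had 8 of 29 lower and 1 higher. Plod2 was one, and Car12, a carbonic anhydrase, another, at 44.1 ± 4.73 CPM in SGK3 KO cells and 63 ± 4.28 CPM in WT cells (-0.51 ± 0.08, edgeR adjusted p = 2.60e-06). Of 20 NRF2 target genes 4 were higher and 2 lower. Srxn1, which repairs peroxiredoxins, averaged 29.5 ± 2.87 CPM in SGK3 KO cells and 21 ± 1.56 CPM in WT cells (0.49 ± 0.08, edgeR adjusted p = 2.18e-05). Me1, a source of NADPH, differed by -0.29 ± 0.08 (edgeR adjusted p = 0.0140), a call lost without SGK3 KO replicate 5 or WT replicate 2 or 3 (edgeR adjusted p = 0.0520 to 0.0661). Cell cycle genes were almost level, with 3 of 37 lower and 2 higher. Ccnb1 (cyclin B1) differed by -0.33 ± 0.05 (edgeR adjusted p = 3.51e-06) and Ccne2 (cyclin E2) by 0.31 ± 0.08 (edgeR adjusted p = 0.00806), and limma on TPM did not call the second (adjusted p = 0.0736). Of 26 p53 and BCL2 family genes 3 were higher and 2 lower. Zmat3, a p53 target, averaged 56.6 ± 6.35 CPM in SGK3 KO cells and 36.2 ± 3.52 CPM in WT cells (0.65 ± 0.08, edgeR adjusted p = 7.96e-08). Phlda3, an inhibitor of AKT, averaged 1.76 ± 0.594 CPM in SGK3 KO cells and 0.578 ± 0.329 CPM in WT cells (1.6 ± 0.54, edgeR adjusted p = 0.0469), a call lost without SGK3 KO replicate 2, 3, 4 or 5 or WT replicate 2, 3 or 4 (edgeR adjusted p = 0.0558 to 0.146).

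Macrophage identity genes were mixed. Of 21 tested, 4 were lower and 4 higher, as were 4.7% and 6.12% of all genes tested. Csf1r, the receptor of the macrophage growth factor, had 1461, 1422, 1569, 1542 and 1331 CPM in SGK3 KO libraries and 1732, 1907, 1766, 1512 and 1616 CPM in WT libraries, a difference of -0.22 ± 0.06 (edgeR adjusted p = 0.00622) with overlapping groups. Adgre1 (F4/80) averaged 19.7 ± 1.42 CPM in SGK3 KO cells and 16.4 ± 1.24 CPM in WT cells and did not pass (0.26 ± 0.12, edgeR adjusted p = 0.172). Fcgr1 and Siglec1, which interferon also raises, were lower by more. Fcgr1 encodes the high-affinity receptor of IgG. Fcgr1 had 21.5, 20.4, 20.3, 21.5 and 22.1 CPM in SGK3 KO libraries, against 61.4, 64.2, 69.1, 66.7 and 67.7 CPM in WT libraries (-1.64 ± 0.09, edgeR adjusted p = 1.23e-18). Siglec1 (CD169) averaged 0.738 ± 0.240 CPM in SGK3 KO cells and 14.1 ± 3.54 CPM in WT cells (-4.26 ± 0.53, edgeR adjusted p = 7.83e-08). Among 15 osteoclast genes 3 were higher and 1 lower. That one was Car2, a carbonic anhydrase of acid-secreting cells, at 31.9, 32.6, 35.5, 30.2 and 27.2 CPM in SGK3 KO libraries and 188, 174, 185, 155 and 159 CPM in WT libraries (-2.45 ± 0.09, edgeR adjusted p = 1.96e-24), with the same difference without DMXAA (-2.45 ± 0.12, edgeR adjusted p = 3.59e-20).

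The SGK3 KO line was also set directly against the SGK1/SGK3 double KO line with DMXAA. This comparison uses the same 5 SGK3 KO libraries as the one with WT cells. The lines differed in 396 genes, 259 higher in SGK3 KO cells (1.41%) and 137 lower (0.748%). A fit of batch b1 alone gave 876. Of the interferon lists, 5 of 28 antiviral effectors were higher in SGK3 KO cells, as were 1 of 13 GTPases, 1 of 16 sensors and none of 25 MHC genes, and none of the 4 lists held a lower gene. Ifnb1 averaged 5.64 ± 1.27 CPM in SGK3 KO and 2.54 ± 0.663 CPM in double KO cells, which did not pass the test (1.15 ± 0.47, edgeR adjusted p = 0.403). Rsad2 averaged 36.5 ± 5.47 CPM in SGK3 KO and 42.5 ± 9.51 CPM in double KO cells (-0.22 ± 0.20, edgeR adjusted p = 1). Irf7 was somewhat higher in SGK3 KO cells, at 8.83 ± 0.966 CPM against 5.39 ± 1.09 CPM in double KO cells (0.71 ± 0.19, edgeR adjusted p = 0.0367). Sgk1 averaged 21.6 ± 2.22 CPM in SGK3 KO and 4.78 ± 1.11 CPM in double KO cells (2.17 ± 0.32, edgeR adjusted p = 1.22e-05).

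The widest differences between these edited lines were again in genes on in one and nearly off in the other. Ptprk was at 0 in all 5 double KO libraries, and Nxf7 averaged 36.5 ± 0.821 CPM in SGK3 KO and 0.149 CPM in double KO cells. Jam2, a junctional adhesion protein, averaged 0.849 ± 0.227 CPM in SGK3 KO and 18 ± 2.43 CPM in double KO cells (-4.41 ± 0.13, edgeR adjusted p = 2.92e-28), and 19.2 ± 0.805 CPM in WT cells. Crlf2, a subunit of the TSLP receptor, had 7.07, 7.08, 6.29, 5.85 and 8.56 CPM in SGK3 KO and no count in double KO libraries, and Bdh1, of ketone body use, averaged 9.28 ± 0.791 CPM in SGK3 KO and 0.0214 CPM in double KO cells. Rnd3, an atypical small GTPase, was lower in SGK3 KO cells, at 1.99 ± 0.618 CPM against 15.3 ± 2.38 CPM in double KO cells (-2.94 ± 0.27, edgeR adjusted p = 2.76e-11). Agap2, a GTPase-activating protein, averaged 0.308 ± 0.174 CPM in SGK3 KO and 7.47 ± 0.934 CPM in double KO cells, and Slc9b2, a sodium/proton exchanger, 0.129 CPM, under its floor, in SGK3 KO and 7.35 ± 0.817 CPM in double KO cells. Plod2 and Maoa did not separate the 2 lines, with Plod2 at 0 in both and Maoa at 28.1 ± 2.94 CPM in SGK3 KO and 29 ± 2.44 CPM in double KO cells (-0.04 ± 0.16, edgeR adjusted p = 1).

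Against WT cells given Sanofi-14h before DMXAA, the same SGK3 KO libraries differed in 1871 genes, 1165 higher in SGK3 KO cells (6.36%) and 706 lower (3.85%). Ifnb1 averaged 5.64 ± 1.27 CPM in SGK3 KO and 7.06 ± 0.413 CPM in inhibitor-treated cells and did not pass the test (-0.32 ± 0.45, edgeR adjusted p = 0.852), nor did Isg15, at 71 ± 2.82 CPM in SGK3 KO and 70.5 ± 5.66 CPM in inhibitor-treated cells (0.01 ± 0.33, edgeR adjusted p = 1). Irf1 was another that did not pass, with 22 ± 0.920 CPM in SGK3 KO and 23.1 ± 2.07 CPM in inhibitor-treated cells (-0.07 ± 0.14, edgeR adjusted p = 0.911). Rsad2 and Irf7 were lower in SGK3 KO than in inhibitor-treated cells. Both were also lower in untreated SGK3 KO than in untreated WT cells, and a link between these differences was not tested. Rsad2 averaged 36.5 ± 5.47 CPM in SGK3 KO and 352 ± 58.8 CPM in inhibitor-treated cells (-3.27 ± 0.22, edgeR adjusted p = 3.06e-14), and Irf7 8.83 ± 0.966 CPM and 64 ± 17.6 CPM in the same order (-2.86 ± 0.20, edgeR adjusted p = 3.36e-14).

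By list, 13 of 28 antiviral effectors were lower in SGK3 KO than in inhibitor-treated cells and 2 higher, 10 of 19 ISG15, PARP and TRIM genes lower and 1 higher, 6 of 13 GTPases lower, 8 of 16 sensors lower and 2 higher, and 13 of 25 MHC genes lower. Among NF-kB genes 8 of 21 were higher and none lower, and among cell cycle genes 12 of 37 were higher and 3 lower. Genes on in one line and off in the other recurred here. Maoa and Ptprk were at 0 in all 5 inhibitor-treated libraries, Plod2 averaged 12.3 ± 1.13 CPM there, and Jam2, Adgrl2, Scarf1 and Nxf7 stood at 27 ± 1.39, 8.04 ± 1.67, 0.271 ± 0.129 and 1.67 ± 0.236 CPM. Cd28 averaged 0.130 CPM in SGK3 KO cells, under the floor, and 5.57 ± 1.29 CPM in inhibitor-treated cells. Loss of SGK3, other properties of the edited line and other actions of the drug cannot be told apart in this comparison.

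By position, chromosome medians of the difference with DMXAA ran from -0.05 to 0.02, and medians of 139 windows of 20 Mb from -0.11 to 0.14. Within 1 Mb of Sgk3, 19 neighbours were tested and 1 differed, Vcpip1, named after its value was seen.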

How the data were processed

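Total RNA was extracted, enriched for polyadenylated RNA and sequenced, per the labels' protocols. The authors deposited a table of estimated counts per gene and a table of TPM per gene for all 50 libraries. Per the submitters' processing notes the tools were STAR 2.7.9a and StringTie 2.2.0 on GRCm39, and how the counts were made is not given in the sources used here. The deposited estimated counts were rounded. Low values cluster near 4 and 8, so the detection floor was set at 12 counts per library, taken as 3 read pairs.

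All 46 libraries of batches b1 and b2 entered 1 edgeR 4.0.16 quasi-likelihood fit (R 4.3.3, TMM scaling, robust dispersion) with a term per group, which then share 1 estimate of spread. Of 55416 genes, 18315 passed filterByExpr, and Benjamini-Hochberg adjustment ran over these at 0.05. Where a group held no count of a gene, the floor stood in for it. Alternatives were DESeq2 1.42.0, limma 3.58.1 on log2(TPM + 0.5), other scaling, filter and library sets, a length trend, a replicate block and leaving out each library. The test was tried on simulated counts first.

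Named genes were those marked by hand in the lists, the 12 highest and 12 lowest called differences without overlap at a mean of at least 5 CPM, the 2 largest called members of each list, the 6 highest and 6 lowest interactions, and the 4 highest and 4 lowest of each other comparison. Members, lists and tests were chosen with earlier results of these data known.

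The 4 libraries of b3 were not used, and 1 of them carries a title and a treatment field that disagree. The labels do not say that replicates were separate cultures, so p-values reflect no more than how these libraries varied, which may be technical. No source used here gives strand, and similar genes (Ifit, Oas, Gbp, H2, Apol9) may share reads. Gene coordinates are GRCm39, from the deposited table. Promoter sequences are from RefSeq (GRCm38.p6), matched by symbol. Results for a few genes are not reported here.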

Additional observations from a re-analysis of the deposited data

Results flagged for a closer look

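In 13 of 199 groups of 5 libraries examined, 1 library stood away from the other 4, where chance gives about 1 in 20. Of the 13, 5 were SGK3 KO replicate 5 with DMXAA. They were Atf3 at 46.8 CPM, Ccnb1 at 194.1 CPM, Cebpg at 61.8 CPM, Ddx58 at 44.2 CPM and Irf3 at 41.8 CPM. SGK3 KO replicate 3 stood apart for Egr1 at 286 CPM and Hmgcs1 at 106 CPM, replicate 4 for Abca1 at 8.26 CPM, and replicate 2 for Pycr1 at 3.80 CPM. Among WT libraries with DMXAA, replicate 1 stood apart for Apol9b at 15.3 CPM, Cd28 at 3.53 CPM and Dhx58 at 57.3 CPM, and replicate 5 for Ifi209 at 1.07 CPM.

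For 15 named genes the difference between SGK3 KO and WT cells was not the same with and without DMXAA in edgeR's interaction test. The values below are the difference with DMXAA minus that without, on the log2 scale. They were negative for Irf1 (-1.96), Atf3 (-1.30), Trip6 (-1.09), Egr1 (-1.04), Map3k8 (-1.03), Daxx (-0.90), Stat2 (-0.74) and Cgas (-0.50). They were positive for Rtp4 (3.06), Ifi44l (2.2), Ifi44 (2.13), Ifih1 (1.46), Ddx58 (1.24), Dhx58 (1.23) and Txnip (0.73).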

How the results depend on the processing

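The number of genes called changed most with which libraries entered the fit. Between SGK3 KO and WT cells with DMXAA, where 1982 were called, a fit of batch b1 alone called 3913 and one of the compared groups called 3414. In the same order the count was 876 and 812 against the double KO, 3775 and 3491 against Sanofi-14h-treated WT cells, and 187 and 160 for the interaction. For the interaction DESeq2 called 103, limma on TPM 65, and a fit with the length trend removed 72. On TPM 15.8% of genes that DMXAA lowered were higher in SGK3 KO cells, in place of 30%. The cause of these shifts was not tested. Leaving out 1 library gave 1603 to 1788 genes against WT, 295 to 350 against the double KO, 1556 to 1734 against Sanofi-14h-treated cells and 20 to 41 for the interaction, with 21.7 to 24% of induced genes lower and 25 to 30% of lowered genes higher. Replicate numbers did not pair the libraries, since same-numbered SGK3 KO and WT libraries had correlations of deviations from -0.159 to 0.0761, and the replicate block called 1824, 360, 1734 and 39 genes in these 4 comparisons. No call of a named gene changed its sign under these alternatives, and the signs of the other called genes were not checked. For named genes against WT with DMXAA, calls were lost 48 times when 1 library was left out and 8 times with limma on TPM. Such calls were lost 5 times with no low-count filter, 3 times with the block and 1 time with DESeq2. The fit of compared groups lost 1 and added Adgre1 (edgeR adjusted p = 0.0126). Interaction calls of named genes were lost 20 times when 1 library was left out. They were also lost 1 time with limma on TPM and 1 time in the fit of compared groups. Levels under the floor of about 0.152 to 0.163 CPM with DMXAA were not detectable at this depth.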
